A study of Homo sapiens with 2 samples.

Results

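*HES1*, *HES4*, *HEY1*, *HEY2*, *NRARP* and *DTX1* are 6 genes that notch signaling is known to switch on, and their mRNA was followed here in blood progenitors made from pluripotent stem cells. The 6 genes were taken by symbol from the 32738 genes of a single-cell count table. Earlier results of these data were known when they were chosen. All 6 had at least 1 unique molecular identifier (UMI, the tag that marks a captured mRNA molecule) in the cells kept, where 23268 genes did. The cells came from the induced pluripotent stem cell line IPS11. CD34+ cells made from that line were plated for the endothelial-to-hematopoietic transition (EHT), the step in which blood-forming endothelium gives rise to blood cells. Wells were uncoated or were coated with VCAM1, with DLL4 or with DLL4 and VCAM1 together, and cells in all of them received the same EHT medium. On day 5 the cells that did not adhere were collected from 3 wells of each coating condition and combined, so that each of the 4 conditions was represented by 1 pool of wells from 1 line. Each pool carried its own hashtag antibody, and the 4 pools were captured together in 1 library. The labels do not say which of the hashtags, 0252, 0253, 0254 and 0255, marked which coating. Values are therefore given for each hashtag by its number, and no hashtag was set against the others as a treatment.

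Notch signaling passes between cells that touch. A ligand such as DLL4 on 1 cell binds a notch receptor on its neighbor, the proteases ADAM10 and gamma-secretase then cut the receptor, and its intracellular part enters the nucleus and joins the DNA-binding protein RBPJ at target genes. HES and HEY proteins are transcriptional repressors, NRARP binds the nuclear complex and dampens it, and DTX1 is a ubiquitin ligase that acts on the pathway. In the embryo, notch is known for the arterial fate of endothelium and for the emergence of blood stem cells from it, and later for the T cell fate. VCAM1 is an adhesion molecule that binds integrins on blood progenitors.

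The bases upstream of these genes are shown first, because the letters that RBPJ is known to bind lie there in 3 of them. Of the 6 genes, 4 had an entry in a RefSeq promoter table (GRCh38.p14) of 250 bases before and 50 after each start site, namely *HES1*, *HES4*, *HEY2* and *NRARP*. They were searched on both strands for GTGGGAA, a form of the RBPJ site, and for its shorter core TGGGAA, which lies within it, so that every match to the first is also a match to the second. For *HES1* (chr3:194135898-194136147, plus strand) and *HES4* (chr1:1000098-1000347, minus strand) the 250 upstream bases are given 5′ to 3′ along the gene's own strand, and for *HEY2* (plus strand) the 30 bases around each match (chr6:125749617-125749646, which spans the start site, and chr6:125749408-125749437). Capitals mark the matches.
HES1: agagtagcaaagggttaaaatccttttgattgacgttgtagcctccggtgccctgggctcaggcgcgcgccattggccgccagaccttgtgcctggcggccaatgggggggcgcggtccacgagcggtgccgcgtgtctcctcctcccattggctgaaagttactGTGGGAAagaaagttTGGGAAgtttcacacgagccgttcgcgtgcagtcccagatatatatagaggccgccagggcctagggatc
HES4: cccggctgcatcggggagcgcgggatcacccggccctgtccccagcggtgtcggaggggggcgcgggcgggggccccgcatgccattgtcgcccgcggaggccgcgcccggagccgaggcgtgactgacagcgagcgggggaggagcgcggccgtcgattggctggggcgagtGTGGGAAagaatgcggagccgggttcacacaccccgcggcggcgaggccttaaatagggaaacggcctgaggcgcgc
HEY2, around the start site: agagttgcggcGTGGGAAagagccgctagg
HEY2, upstream: ccgcggccgcgTTCCCACgcctcggctgga
In *HES1*, GTGGGAA began 85 bases upstream of the start site and a further TGGGAA began 70 bases upstream, both on the gene's strand. In *HES4*, GTGGGAA began 77 bases upstream on the gene's strand. *HEY2* had GTGGGAA 4 bases upstream on its own strand, so that the match runs past the start site, and 213 bases upstream on the opposite strand, where it reads TTCCCAC. Neither form was found in the 300 bases of *NRARP*. Among all 35116 promoters of the table, 5.43% held GTGGGAA and 20.8% held TGGGAA within the 250 upstream bases. A match describes these letters alone and does not show that the site was bound.

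The library held 10836 barcodes with no barcode listed more than once. Of these, 8488 were called for a single hashtag and 7550 also had at most 36000 UMIs, 6000 genes and 18% of UMIs from mitochondrial genes. They comprised 2136, 1996, 1847 and 1571 cells of hashtags 0252, 0253, 0254 and 0255, with 40416478, 38464656, 34707600 and 28522216 UMIs. The median cell had 18318.5 UMIs. Every series of 4 values below follows this order of the hashtags. Levels are given in CPM, a gene's summed UMIs in a set of cells scaled to 1000000 UMIs, with exact Poisson 95% intervals, and shares of cells carry exact Clopper-Pearson 95% intervals. Ratios between sums carry exact conditional binomial 95% intervals. None of these intervals includes variation from culture to culture, only counting error, and no p-value is given because the single library had no replicate. Those of levels and ratios also take UMIs as independent, so they are too narrow for a gene whose UMIs gather in few cells.

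Cells were grouped by marker UMIs, and a cell could enter more than 1 group. CD34/GATA2-positive cells (2 or more UMIs of each) numbered 1793, with 537, 472, 492 and 292 by hashtag. SPINK2-positive cells (3 or more UMIs) numbered 1182, with 297, 203, 354 and 328. The 200 cells in both groups, and the 206 noted below that are also KLF1-positive, count on each side of a ratio between groups. C1Q-positive cells (10 or more UMIs of *C1QA*, *C1QB* and *C1QC* together) numbered 645, with 191, 170, 168 and 116. ELANE-positive cells (10 or more UMIs) numbered only 71, with 38, 25, 5 and 3. Macrophage and granule genes went with the C1Q and ELANE groups, while the progenitor lists did not set the progenitor groups apart. The summed level of 6 macrophage genes was 1769 to 2273 CPM in C1Q-positive cells and 38.8 to 66.5 CPM in CD34/GATA2-positive cells. The 5 granule genes led by *MPO* reached 34266 to 47364 CPM in ELANE-positive cells. The 6 genes listed for CD34/GATA2-positive progenitors summed to 601 to 667 CPM in those cells but to 638 to 759 CPM in ELANE-positive cells. The list for SPINK2-positive progenitors reached 591 to 698 CPM in SPINK2-positive and 638 to 887 CPM in CD34/GATA2-positive cells, so both groups are named here by the genes of their rule alone. *HLF*, a stem cell marker, was nearly absent from the CD34/GATA2-positive cells, at 1.53 CPM and in 2.79% of them. Because so few cells met the ELANE rule, 906 cells with 50 or more UMIs of *MPO*, the myeloperoxidase of neutrophil granules (382, 373, 92 and 59 by hashtag), were added as a further group after the data were seen. The 354 cells with 2 or more UMIs of *KLF1*, a master regulator of red cell genes, were also described, and 206 of them were CD34/GATA2-positive as well. Median UMIs per cell were 21171 in CD34/GATA2-positive, 21473.5 in SPINK2-positive, 20038 in KLF1-positive, 19255 in MPO-positive, 13496 in C1Q-positive and 11859 in ELANE-positive cells.

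*HES1* was present in progenitors of every hashtag, and its order over the hashtags changed from group to group. HES1 is the best known of the notch-induced repressors (hg19 chr3:193853937-193856521, plus strand). In CD34/GATA2-positive cells its level was 34.7 CPM (31.4 to 38.2), 47.0 CPM (43.0 to 51.4), 40.7 CPM (36.9 to 44.7) and 56.4 CPM (50.6 to 62.5), from 410, 493, 429 and 353 UMIs. Hashtag 0255 was thus highest and 0252 lowest. The steps from 0255 through 0253 and 0254 to 0252 were 1.16 to 1.20 times, with intervals that began just above 1 (the lowest at 1.01). Because the variance of *HES1* over these cells was 3.75 times the mean, those intervals are too narrow, and the single steps are not settled. From highest to lowest the ratio was 1.62 (1.41 to 1.88). By share, 31.3, 40.3, 36.8 and 43.5% of these cells had a *HES1* UMI. After each cell was thinned to 5000 UMIs, 12.1, 16.5, 17.7 and 22.3% did, which put 0254 above 0253. The share in MPO-positive cells, the lowest of the larger groups, was 3.64% at a similar depth.

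SPINK2-positive cells had less *HES1*, and the hashtags lay further apart. Its level was 7.40 CPM (5.46 to 9.81), 8.51 CPM (6.08 to 11.6), 26.4 CPM (22.8 to 30.3) and 29.02 CPM (25.2 to 33.3), from 48, 40, 201 and 203 UMIs. Hashtags 0254 and 0255 did not differ beyond counting error (ratio 1.10, 0.902 to 1.34), nor did 0253 and 0252 (1.15, 0.737 to 1.79), while 0254 was 3.096 times 0253 (2.20 to 4.46). The ratio of the highest to the lowest was 3.92 (2.85 to 5.49). CD34/GATA2-positive cells had 4.69, 5.52, 1.54 and 1.94 times the *HES1* level of SPINK2-positive cells of the same hashtag. All 4 of these intervals lay above 1, and those of the first 2 hashtags (3.47 to 6.46 and 3.999 to 7.83) did not overlap those of the last 2 (1.30 to 1.83 and 1.63 to 2.32). Cells that met both rules, and neither the C1Q nor the ELANE rule, had *HES1* at 9.42, 8.84, 27.0 and 50.7 CPM, from 10, 7, 49 and 57 UMIs. In the first 3 hashtags these levels were near those of the SPINK2-positive cells, and in 0255 the level was near that of the CD34/GATA2-positive cells.

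*HES1* in KLF1-positive cells was 55.6 CPM (46.7 to 65.7), 89.2 CPM (75.8 to 104), 93.2 CPM (81.4 to 106) and 56.8 CPM (42.2 to 74.9). There 0253 and 0254 stood above 0252 and 0255, an order seen in neither progenitor group. The variance of *HES1* over these cells was 4.15 times the mean, so its intervals are too narrow here too. The level in KLF1-positive cells was 1.60, 1.90 and 2.29 times that of the CD34/GATA2-positive cells in the first 3 hashtags, and did not differ beyond counting error in 0255 (1.01, 0.735 to 1.36). The 6 erythroid marker genes summed to 1850, 8935, 12925 and 8532 CPM in these KLF1-positive cells; their part in the *HES1* order was not tested. With KLF1-positive cells left out, CD34/GATA2-positive cells still had *HES1* at 33.5, 42.4, 35.1 and 56.8 CPM, and the ratio of highest to lowest was 1.70 (1.45 to 1.98), but 0254 and 0252 no longer differed beyond counting error (1.05, 0.899 to 1.23). In C1Q-positive cells *HES1* was low, at 3.03, 3.32, 8.68 and 4.01 CPM from 8, 9, 22 and 7 UMIs, where no neighbors in order of level differed beyond counting error and the extremes did by 2.86 times (1.23 to 7.44). In MPO-positive cells it was 2.52, 1.92, 3.51 and 1.59 CPM from 18, 14, 7 and 2 UMIs. ELANE-positive cells had 4 *HES1* UMIs in all, of which 3 were in 0252 and 1 in 0254.

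*HES4* was higher in 0254 and 0255 than in 0252 and 0253 in every larger marker group but the MPO-positive cells. HES4 is a second repressor of the family (hg19 chr1:934342-935552, minus strand). In CD34/GATA2-positive cells its level was 5.67 CPM (4.39 to 7.20), 6.49 CPM (5.04 to 8.22), 13.3 CPM (11.2 to 15.7) and 20.1 CPM (16.8 to 23.9), from 67, 68, 140 and 126 UMIs. The intervals of 0254 and 0255 lay above those of the other hashtags, 0255 was 1.52 times 0254 (1.18 to 1.94), and 0252 and 0253 did not differ beyond counting error (1.14, 0.805 to 1.63). The ratio of the highest to the lowest was 3.55 (2.62 to 4.85). Other genes moved with the hashtags in these cells, where the megakaryocyte list summed to 242, 206, 159 and 109 CPM, the granule genes to 662, 598, 491 and 441 CPM and the SPINK2 progenitor list to 638, 708, 819 and 887 CPM. Their part in the *HES4* values was not tested. In SPINK2-positive cells the level was 4.32 CPM (2.87 to 6.24), 5.75 CPM (3.79 to 8.36), 21.1 CPM (17.97 to 24.6) and 30.4 CPM (26.5 to 34.8), from 28, 27, 161 and 213 UMIs, with a ratio of 7.05 (4.74 to 10.9). Here too 0255 was above 0254 (1.44, 1.17 to 1.78), 0254 was 3.67 times 0253 (2.43 to 5.75), and the lower pair did not differ beyond counting error (1.33, 0.755 to 2.34). The share of SPINK2-positive cells with a *HES4* UMI was 8.42, 11.3, 26.8 and 32.6%, and 2.02, 3.94, 10.2 and 12.5% after thinning, beside 2.32% of MPO-positive cells as counted.

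C1Q-positive cells, which are macrophage-like by their markers, were arranged alike for *HES4*, from few UMIs. The level was 2.27 CPM (0.835 to 4.95), 1.47 CPM (0.402 to 3.77), 8.68 CPM (5.44 to 13.1) and 18.3 CPM (12.5 to 25.8), from 6, 4, 22 and 32 UMIs, and the highest was 12.4 times the lowest (4.41 to 48.4). The share of cells with a UMI was 2.09, 2.35, 8.93 and 16.4%, and the first 2 of these are near the 2.32% of MPO-positive cells. KLF1-positive cells had 4.03, 3.98, 12.9 and 14.8 CPM from 10, 7, 31 and 13 UMIs. In MPO-positive cells *HES4* was 1.40, 0.961, 3.01 and 0.795 CPM from 10, 7, 6 and 1 UMIs, and all 4 intervals overlapped. ELANE-positive cells had 2 *HES4* UMIs, in a single cell of 0252. Stromal genes moved with the hashtags in the C1Q-positive cells, where 6 of them summed to 45.1, 58.2, 40.3 and 192 CPM, and their part in the *HES4* values was not tested.

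Between groups within a hashtag, *HES4* behaved unlike *HES1*. Its level in CD34/GATA2-positive cells over that in SPINK2-positive cells was 1.31 (0.833 to 2.12), 1.13 (0.713 to 1.83), 0.629 (0.498 to 0.794) and 0.661 (0.526 to 0.827), so that the SPINK2-positive cells were higher in 0254 and 0255 and no difference beyond counting error was seen in 0252 and 0253. As a ratio of UMIs, there were 16.3, 13.8, 32.6 and 35.7 *HES4* UMIs per 100 *HES1* UMIs in CD34/GATA2-positive cells. SPINK2-positive cells had 58.3, 67.5, 80.1 and 105 *HES4* UMIs per 100 *HES1* UMIs, with an interval of 86.2 to 128 in 0255 and of 35.2 to 94.9 in 0252. In KLF1-positive cells the same ratio was 7.25, 4.46, 13.8 and 26.0. The balance of *HES4* and *HES1* thus differed between CD34/GATA2-positive and SPINK2-positive cells in every hashtag, and by hashtag within the CD34/GATA2-positive cells, where the intervals of 0252 (12.4 to 21.2) and 0253 (10.54 to 17.8) lay below those of 0254 (26.8 to 39.6) and 0255 (28.9 to 43.9).

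*HEY2* and *HEY1* encode repressors related to the HES family, known from heart and vessel development. *HEY2* (hg19 chr6:126068810-126082415, plus strand) had 152 UMIs in all cells, and 71 of them, or 46.7%, were in SPINK2-positive cells, which made up 15.7% of cells. There its level was 1.39 CPM (0.634 to 2.63), 0.851 CPM (0.232 to 2.18), 3.93 CPM (2.65 to 5.62) and 4.003 CPM (2.66 to 5.78), from 9, 4, 30 and 28 UMIs. Hashtags 0254 and 0255 were alike in level (ratio 1.02, 0.586 to 1.76), 0254 was 2.84 times 0252 (1.31 to 6.79), and the ratio of highest to lowest was 4.70 (1.64 to 18.4). In CD34/GATA2-positive cells *HEY2* was 0.592, 0.477, 1.04 and 1.44 CPM from 7, 5, 11 and 9 UMIs, with a ratio of 3.01 whose interval included 1 (0.906 to 11.4). The SPINK2-positive cells were the higher group in 0254 and 0255, where the CD34/GATA2-positive cells had 0.265 (0.1199 to 0.544) and 0.359 (0.149 to 0.782) of their level. No *HEY2* UMI was seen in the 645 C1Q-positive cells, which allows a level of up to 0.311 CPM by a floor of 3 UMIs, nor in the 71 ELANE-positive cells, which allows up to 3.05 CPM.

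*HEY1* was at the limit of detection, with 30 UMIs in 27 of the 7550 cells. It had 1, 3, 0 and 1 UMIs in CD34/GATA2-positive cells, 0, 0, 2 and 1 in SPINK2-positive cells, 0, 1, 1 and 1 in C1Q-positive cells and none in ELANE-positive or KLF1-positive cells. Shares of 0.223, 0.254 and 0.465% of cells in the first 3 of these groups stand beside 0.221% of MPO-positive cells. They rest on so few UMIs that they were not told apart from background. Of the 5 UMIs in CD34/GATA2-positive cells, 2 were in a single cell of 0253 with 27 UMIs of the endothelial gene *CDH5*. Cells with 2 or more *CDH5* UMIs, 0.172% of all cells, held 3 of the 30 *HEY1* UMIs. Of the 30 UMIs, 12 (40%) were in 91 cells with 10 or more UMIs of *COL1A1*, *COL1A2* and *COL3A1*, collagen genes of stromal cells, which made up 1.21% of cells.

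Among the genes that act back on the pathway, *NRARP* differed by at most 1.42 times between hashtags in CD34/GATA2-positive and SPINK2-positive cells. In the 4071 cells of none of the 4 marker groups it ran from 5.19 CPM in 0252 to 13.1 CPM in 0255, or 2.53 times (1.98 to 3.24). *NRARP* lies at hg19 chr9:140194083-140196723 on the minus strand. In CD34/GATA2-positive cells its level was 11.25 CPM (9.42 to 13.3), 11.4 CPM (9.40 to 13.6), 12.3 CPM (10.3 to 14.6) and 15.6 CPM (12.7 to 19.1), from 133, 119, 130 and 98 UMIs. No neighbors in this order differed beyond counting error, and the extremes did by 1.39 times (1.06 to 1.82). SPINK2-positive cells had 10.2, 9.79, 11.1 and 13.9 CPM from 66, 46, 85 and 97 UMIs, and the ratio of highest to lowest, 1.42, had an interval that included 1 (0.987 to 2.06). The level in CD34/GATA2-positive cells over that in SPINK2-positive cells was 1.11, 1.16, 1.11 and 1.13, and each interval included 1. In these groups 21.0% and 19.5% of cells had an *NRARP* UMI, beside 8.28% of MPO-positive cells. In C1Q-positive cells *NRARP* was 3.41 CPM (1.56 to 6.48), 1.84 CPM (0.598 to 4.30), 8.68 CPM (5.44 to 13.1) and 13.2 CPM (8.34 to 19.7), from 9, 5, 22 and 23 UMIs. The highest was there 7.14 times the lowest (2.66 to 24.1). The share of C1Q-positive cells with an *NRARP* UMI was 4.71, 2.94, 10.1 and 16.4%, beside 6.28, 8.85, 14.1 and 8.47% of MPO-positive cells of the same hashtags. Only in 0255 did the level in C1Q-positive cells exceed that in MPO-positive cells beyond counting error (13.2 against 3.98 CPM). MPO-positive cells do not set a floor for *NRARP*, because C1Q-positive cells had as little as 1.84 CPM and MPO-positive cells at least 3.64 CPM. Among C1Q-positive cells the level in 0254 was 2.55 times that in 0252 (1.13 to 6.28), so the level in 0254 was not read as background. In the MPO-positive cells themselves *NRARP* was 3.64, 5.63, 8.03 and 3.98 CPM, and the extremes differed by 2.20 times (1.10 to 4.26).

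*DTX1* was almost absent from CD34/GATA2-positive cells and differed widely between hashtags in SPINK2-positive cells. *DTX1* lies at hg19 chr12:113494535-113535833 on the plus strand. CD34/GATA2-positive cells had 1, 1, 4 and 3 *DTX1* UMIs. The share of these cells with a UMI, 0.502%, lay between the 0.282% of KLF1-positive and the 0.662% of MPO-positive cells. It was not told apart from background. The MPO-positive cells do not set a clean floor for *DTX1*, because 64 of them were SPINK2-positive as well. In SPINK2-positive cells the level was 1.54 CPM (0.739 to 2.83), 1.70 CPM (0.735 to 3.35), 5.90 CPM (4.30 to 7.89) and 14.7 CPM (12.02 to 17.9), from 10, 8, 45 and 103 UMIs. Hashtag 0255 was 2.50 times 0254 (1.74 to 3.63), 0254 was 3.47 times 0253 (1.62 to 8.51), and 0253 and 0252 did not differ beyond counting error (1.10, 0.379 to 3.11). The highest was 9.55 times the lowest (4.99 to 20.5). By share, 2.69, 3.94, 7.63 and 17.7% of SPINK2-positive cells had a *DTX1* UMI, and 0.337, 2.46, 2.54 and 6.10% did after thinning. The level in CD34/GATA2-positive cells was 0.0549, 0.0560, 0.0643 and 0.0325 of that in SPINK2-positive cells of the same hashtag, from 1, 1, 4 and 3 UMIs in the former. None of the cells that met both rules in 0252, 0253 or 0254 had a *DTX1* UMI, and those in 0255 had 1. C1Q-positive cells had *DTX1* at 1.52, 2.58, 4.74 and 6.29 CPM from 4, 7, 12 and 11 UMIs, where no neighbors differed beyond counting error and the extremes did by 4.15 times (1.23 to 17.9). No *DTX1* UMI was found in ELANE-positive cells.

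Beyond the SPINK2-positive cells, *DTX1* was found in cells with *CD3D*, which encodes a chain of the T cell receptor complex. *CD3D* is also among the genes listed below as known to respond to notch, so a split by it does not mark a cell type alone. Cells with 2 or more *CD3D* UMIs, a group chosen after the values were seen, numbered 1336, or 17.7% of all cells, and held 264 of the 362 *DTX1* UMIs (72.9%). They made up 8.47, 8.92, 25.4 and 32.3% of the cells of each hashtag, and 559 of them were SPINK2-positive. In CD3D-positive cells *DTX1* was 2.45 CPM (1.17 to 4.50), 1.74 CPM (0.700 to 3.59), 5.90 CPM (4.47 to 7.65) and 18.8 CPM (16.3 to 21.7). In all other cells it was 0.303, 0.784, 1.08 and 1.79 CPM. The level thus differed between hashtags within the CD3D-positive cells as well, by up to 10.8 times (5.15 to 27.3). Among SPINK2-positive cells *DTX1* was 3.08, 1.77, 9.06 and 21.9 CPM in those with *CD3D* and 0.881, 1.66, 1.81 and 3.33 CPM in the rest, from 4, 5, 6 and 9 UMIs, so that without *CD3D* no hashtag exceeded 3.33 CPM. *HES4* in CD3D-positive cells was 5.14 CPM (3.18 to 7.86), 5.97 CPM (3.82 to 8.88), 17.4 CPM (14.9 to 20.2) and 37.1 CPM (33.4 to 41.0), beside 4.68, 4.01, 15.2 and 24.5 CPM in the other cells. Over all cells *HES1* was lower in CD3D-positive than in other cells in 0252 (6.37 against 22.5 CPM) and 0254 (20.3 against 37.2 CPM). Its intervals overlapped in 0253 (20.1 against 25.8 CPM) and 0255 (38.0 against 35.3 CPM). Within SPINK2-positive cells the *HES1* level was instead higher with *CD3D* in 0253 (14.2 against 5.32 CPM, from 24 and 16 UMIs) and 0255 (35.0 against 19.6 CPM, from 150 and 53 UMIs). The shares of cells with a *HES1* UMI, 17.4 against 8.21% and 26.6 against 20.9%, had intervals that overlapped in both hashtags. In 0252 (7.70 against 7.27 CPM) and 0254 the intervals of the level overlapped, and in 0254 the level was the lower with *CD3D* (22.3 against 31.6 CPM). No ratio interval was computed for these splits, so an overlap does not show that the levels were alike. *NRARP* was 10.0, 8.95, 10.9 and 15.0 CPM in CD3D-positive cells and 7.05, 7.49, 9.26 and 12.7 CPM in the others.

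The 4071 cells in none of the 4 marker groups held 155 of the *DTX1* UMIs and 907 of the *HES4* UMIs. Their *HES4* level was 4.74, 3.13, 16.6 and 32.9 CPM and their *DTX1* level 0.299, 0.853, 1.44 and 7.38 CPM, with highest to lowest ratios of 10.51 (8.11 to 13.8) and 24.7 (10.97 to 68.7). The granule genes led by *MPO* summed to 5885, 5847, 1873 and 1632 CPM and the stromal genes to 95.7, 71.2, 216 and 421 CPM in the same cells, and the part of these in the ratios was not tested. CD3D-positive cells were 57, 74, 178 and 241 of the ungrouped cells by hashtag and held 110 of their 155 *DTX1* UMIs. In the CD3D-positive ones *DTX1* was 0.787, 2.73, 4.08 and 21.1 CPM. In the rest it was 0.266, 0.713, 0.720 and 1.65 CPM from 5, 14, 9 and 17 UMIs. There the intervals of 0252 (0.0864 to 0.621) and 0255 (0.960 to 2.64) still did not overlap. The 91 collagen-positive cells (11, 12, 16 and 52 by hashtag) alone held 12.5% of all *HES4* UMIs, at 70.5, 23.4, 241 and 163 CPM. A further 13 cells, with 2 or more UMIs of the endothelial gene *CDH5*, held 9 of the 152 *HEY2* UMIs. Without both kinds of cell the *HES4* ratio in the ungrouped cells was 9.23 (7.02 to 12.3) and the stromal genes summed to at most 24.6 CPM. The *NRARP* ratio was then 2.63 (2.06 to 3.39).

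Most genes varied much less between hashtags than *HES4*, *DTX1* and, in SPINK2-positive cells, *HES1*. The ratio of the highest to the lowest hashtag takes the extremes of each gene, so it is at least 1 for every gene and its interval makes no allowance for that choice. Of 12134 genes with 50 or more UMIs in CD34/GATA2-positive cells, 6.23% had a ratio of 2 or more and the median was 1.22, and of the 3 notch targets measured at that depth 1 had such a ratio, *HES4*. In SPINK2-positive cells 6.43% of 11372 genes reached 2, and 4 of 5 notch targets did, all but *NRARP*. Of these 4, *HEY2* and *DTX1* had 50 UMIs largely through 0254 and 0255 (30 and 28 UMIs, 45 and 103 UMIs). In C1Q-positive cells the background was wider, at 13.7% of 9622 genes. Both notch targets with 50 UMIs there, *HES4* and *NRARP*, reached 2, and they too had these UMIs largely through 0254 and 0255. A gene that enters through the hashtags where it is high tends to a high ratio, so these counts test nothing. The targets were chosen with earlier results of these data known, so their counts beside all genes are only a description. Ranked among genes with at least as many UMIs, the *HES4* ratio was matched or passed by 20 of 7553 genes in CD34/GATA2-positive cells and by 6 of 6055 in SPINK2-positive cells, each count including *HES4* itself. *DTX1* in SPINK2-positive cells was among 5 of 8882 and *HES1* among 8 of 5579. *HES1* and *NRARP* in CD34/GATA2-positive cells were among 69 of 3074 and 552 of 6990. *NRARP* in SPINK2-positive cells was among 660 of 7268, or 9.08%, with a ratio of 1.42 where the median of these genes was 1.17.

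**Figure D1:**
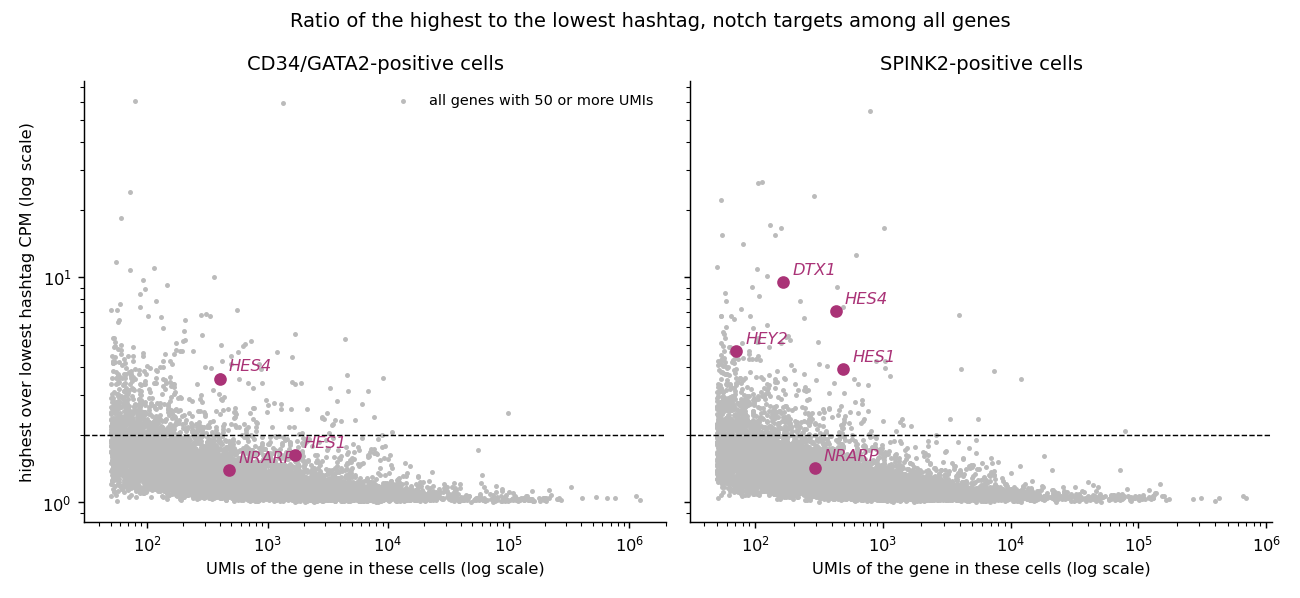
Ratio of the highest to the lowest hashtag CPM (vertical axis, log scale) against the UMIs of a gene (horizontal axis, log scale) for all genes with 50 or more UMIs in CD34/GATA2-positive (left) and SPINK2-positive cells (right), with the notch targets named and a dashed line at 2. In SPINK2-positive cells *DTX1*, *HES4*, *HEY2* and *HES1* lie above most genes of similar UMIs. *NRARP* lies nearer to them, though only 9.08% of genes with at least as many UMIs matched or passed its ratio.

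Within cells, the 3 pairs among *HES1*, *HES4* and *NRARP* were found together, as counted, in 1.28 to 1.35 times the number of SPINK2-positive cells that their shares alone would give and in 1.07 to 1.08 times that number of CD34/GATA2-positive cells. For each of the 15 pairs, the number of cells with UMIs of both genes was set beside the product of the 2 shares, taken within each hashtag and summed. In CD34/GATA2-positive cells *HES1* and *HES4* were found together in 114 cells where the product gave 106, and *HES1* and *NRARP* in 152 cells beside 141. In SPINK2-positive cells *HES1* and *HES4* coincided in 78 cells beside 57.8, *HES1* and *NRARP* in 63 beside 47.1, and *HES4* and *NRARP* in 65 beside 50.8. *HES4* and *DTX1* coincided in 48 cells beside 27.7, so that 47.5% of the SPINK2-positive cells with *DTX1* also had *HES4*. *HES1* and *DTX1*, in contrast, coincided in 25 cells beside 23.4. Over all 7550 cells *HES4* and *DTX1* were found together in 91 cells beside 51.0 and *HES1* and *DTX1* in 49 beside 60.9, the former above the product and the latter below it. Deeper cells have more UMIs of every gene, which raises these counts. The products were also not taken within CD3D-positive cells. Among SPINK2-positive cells of all hashtags, those more often had *HES4* (29.3 against 13.8%) and *DTX1* (15.0 against 2.73%) than the rest. Nor were the products over all cells taken within marker groups. The part of such mixing in these counts was not tested. After thinning to 5000 UMIs, *HES1* and *HES4* coincided in 20 CD34/GATA2-positive cells beside 15.8 and in 10 SPINK2-positive cells beside 8.08, or 1.27 and 1.24 times the product, so that the difference between the groups as counted (1.07 and 1.35) was not seen. For *HES4* and *NRARP* the thinned counts were 9 CD34/GATA2-positive cells beside 5.23 and 8 SPINK2-positive cells beside 5.43. These are 1.72 and 1.47 times the product, so the former group was there the higher. *HES1* and *NRARP* then coincided in 16 CD34/GATA2-positive cells beside 17.3 and in 8 SPINK2-positive cells beside 4.95. In KLF1-positive cells that pair was below the product as counted (29 beside 32.1) and after thinning (4 beside 5.84). *HES4* and *DTX1* coincided in 8 thinned SPINK2-positive cells beside 3.63. No interval was computed for these excesses.

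Cells with 2 or more of the 6 genes made up 9.497, 14.4, 19.1 and 26.4% of CD34/GATA2-positive cells and 5.05, 8.37, 25.4 and 30.2% of SPINK2-positive cells. The interval of 0255 (21.4 to 31.8%) overlapped that of 0254 (15.7 to 22.9%) in the first group, and the intervals of 0254 and 0255 lay above those of 0252 and 0253 in the second. In C1Q-positive cells the shares were 0.524, 0.588, 4.17 and 7.76%, and in MPO-positive cells 0.785, 0.804, 5.43 and 1.69%. After thinning, 0.673, 1.97, 3.39 and 6.71% of SPINK2-positive cells had 2 or more of the genes, and the interval of 0254 (1.76 to 5.85%) then overlapped those of 0252 (0.0817 to 2.41%) and 0253 (0.539 to 4.97%). UMIs of 3 or more of the genes were found in 1.01, 0.985, 6.78 and 10.7% of SPINK2-positive cells. Only 1 cell had UMIs of all 6, a CD34/GATA2-positive cell of 0253 that also had 27 UMIs of *CDH5*, 19 of *CLDN5* and 47 of *KDR*, which are endothelial genes.

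**Figure D2:**
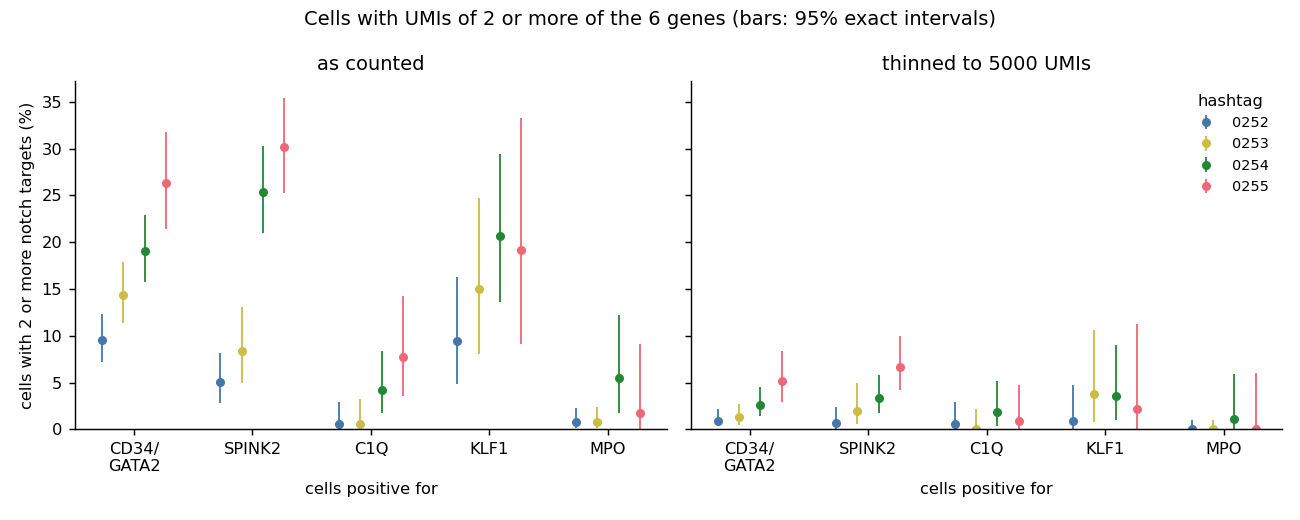
Percent of cells with UMIs of 2 or more of the 6 genes (vertical axis) in 5 groups of cells (horizontal axis) by hashtag, as counted (left) and with each cell thinned to 5000 UMIs (right), with exact 95% intervals. In SPINK2-positive cells 0254 and 0255 reach 25.4 and 30.2% as counted, and the shares fall to 3.39 and 6.71% after thinning.

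The genes also differed in how their UMIs were spread over cells. In CD34/GATA2-positive cells *HES1* ranged up to 20 UMIs per cell, 374 cells with 2 or more UMIs held 82.7% of its UMIs, and the variance over cells was 3.75 times the mean, or 1.54 times after thinning. *NRARP* did not exceed 4 UMIs per cell there, and its variance was 1.26 times the mean, or 0.996 after thinning, which is close to the value of 1 that counting alone gives. For *HES4* and *DTX1* in SPINK2-positive cells the ratios were 2.31 and 2.46 as counted and 1.53 and 1.27 after thinning. The ratio depends on a gene's mean and on differences between the pooled hashtags, so it does not rank the genes by evenness. *HES1* had 1685 UMIs in 1793 CD34/GATA2-positive cells, and *DTX1* had 166 in 1182 SPINK2-positive cells.

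Of the other notch pathway genes measured, only known responders reached a highest to lowest ratio of 2 between hashtags in CD34/GATA2-positive cells. Of 64 listed genes, 63 were in the table, 47 had 50 or more UMIs, and 3 of these 47 had a highest to lowest ratio of 2 or more, near the 6.23% of all genes. The median ratio was 1.26, beside 1.22 for all genes. By list the median ran from 1.10 for the nuclear partners to 1.51 for receptors, 1.57 for ligands and 1.69 for responders. None of 4 receptors (highest ratio 1.67, *NOTCH3*), 2 measured ligands, 7 genes of receptor cleavage, 9 nuclear partners, 9 genes of sugar transfer and turnover, 4 co-repressors and 5 other HES, HEY and DTX relatives reached 2. *NOTCH3* was listed both as a receptor and as a responder. Listed genes with fewer UMIs were given no ratio, so responders at low levels are not described. In SPINK2-positive cells the lists were not scored as a whole. There the DTX relative *DTX4* and the listed responders *EFNB2* and *CD3D* had ratios of 5.60, 5.24 and 3.90, from 57, 103 and 4098 UMIs. Of all genes measured in SPINK2-positive cells, 6.43% reached 2. They are named as examples with high ratios, and the other listed genes were not counted there. Which hashtags were highest for them is not given, so no shared order with the notch targets is described. In CD34/GATA2-positive cells all 3 genes that did reach 2 were among 8 measured genes listed as known to respond to notch, and they had no common order. *CD3D* was 15.6, 22.0, 70.2 and 87.3 CPM (ratio 5.58), *CCND1*, which encodes the cell cycle regulator cyclin D1, was 16.3, 15.7, 9.20 and 7.34 CPM (2.22), and *GJA5*, which encodes a gap junction protein of arterial endothelium, was 1.10, 3.63, 0.474 and 0.639 CPM (7.65) from 60 UMIs. The group included 2 CDH5-positive cells, and their part in the *GJA5* ratio was not tested.

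The genes whose levels were most like those of the notch targets were sought over 16 points, the 4 marker groups by 4 hashtags, with cells that met exactly 1 rule and genes with 500 or more UMIs. Likeness was Pearson's r of log2(CPM + 1), and since the points share 1 library and differ widely in cell number it is only a description. For *HES1* the nearest were *CD79A* (0.940), *RP11-60L3.1* (0.939) and *THUMPD1* (0.928). *HES4* was most like *PDGFRB* (0.958), *NFATC4* (0.897) and *SMAGP* (0.886), and *NRARP* most like *NELFCD* (0.941), *E2F5* (0.928) and *HOXB6* (0.921). For *DTX1* they were *CD3G* (0.897), which encodes another chain of the T cell receptor complex, *CYP1B1* (0.897) and *PSME2* (0.888). Among themselves, *HES1* and *NRARP* had r = 0.81, *HES4* and *DTX1* 0.64, and *HES1* and *DTX1* 0.11. *HEY1* and *HEY2* had too few UMIs to be ranked. Without the 4 ELANE points, which hold few cells, r fell to 0.749 for *NFATC4* and 0.654 for *SMAGP* with *HES4* and to 0.773 for *E2F5* with *NRARP*, and was 0.845 to 0.934 for the other 9 genes.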

How the data were processed

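Single-cell mRNA of EHT cells was captured with a 3′ kit (10x v3.1) in 1 library with its hashtag library. The authors aligned reads to hg19 with Cell Ranger 6.0.1, per the submitters' processing notes, and deposited UMI counts per gene and barcode, without normalization, and a hashtag call for each barcode. Calls of a doublet (1339 barcodes) or a negative (1009) were left out. Droplets with 2 cells of the same hashtag were not sought. Each cell was thinned to 5000 UMIs with a fixed seed, which left out 68 shallower cells. A level of 0 is given with a floor of 3 UMIs.

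Named were the 6 genes, up to 5 pathway genes with a ratio of 2 or more, and the 3 genes most like each target (targets with 200 or more UMIs). The genes, marker rules and lists were chosen with earlier results of these data known. Alternatives were other marker thresholds, exactly 1 marker rule, a mitochondrial limit of 10%, no limit on UMIs or genes, no CDH5-positive or collagen-positive cells, and thinning. Gene positions are from an hg19 annotation, and promoters from RefSeq. Ratios were tested on simulated data. Python 3.11.15, numpy 2.4.6, scipy 1.17.1, pandas 2.3.3 and matplotlib 3.10.9 were used.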

Additional observations from a re-analysis of the deposited data

Results flagged for a closer look

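Barcodes without a single hashtag entered no comparison, and signal of the notch targets was seen in them above the level that 3 UMIs would give. In 1009 negative barcodes *HES1* was 41.3 CPM, *HES4* 12.5 CPM, *NRARP* 11.5 CPM, *DTX1* 0.968 CPM and *HEY2* 0.83 CPM. In 1339 doublet barcodes, whose median of 27367 UMIs compares with 14456 in the negatives, *HES1* was 32 CPM, *HES4* 21 CPM, *NRARP* 9.11 CPM, *DTX1* 2.84 CPM, *HEY2* 1.86 CPM and *HEY1* 0.627 CPM. No control barcodes exist for these values, and the cells behind them were not assigned to a coating or a hashtag.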

How the results depend on the processing

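Of 39 recomputed ratios of the highest to the lowest hashtag in CD34/GATA2-positive cells, 34 stayed within the counting interval of the value reported and 5 moved out of it. Of the 34, 5 came from an *ELANE* threshold of 1 UMI, which cannot change these cells. A further 5 came from leaving out CDH5-positive and collagen-positive cells, which kept 1789 of the 1793 cells. The count of 34 thus overstates how stable the ratios were. Such a ratio cannot fall below 1, so only its size and the hashtags at its ends can change. For *HES4* (3.55) the ratio was 5.13 with lowered marker thresholds, 8.96 with a mitochondrial limit of 10% and 5.33 after thinning to 5000 UMIs, where 0253 and not 0252 was lowest. For *HES1* (1.62) it was 2.04 with raised thresholds and 3.71 with the limit of 10%, where 0253 was highest. That limit left 736 cells, of which 55 were CD34/GATA2-positive, so that its values rest on few UMIs. *HEY1* gave no ratio at any setting, and *HEY2* and *DTX1* gave none under the limit of 10% or after thinning, and *DTX1* gave none with raised thresholds or stricter hashtag counts. Of the levels, 174 of 216 stayed within their intervals, and of the shares 168 of 216. The *ELANE* threshold leaves levels and shares in the other marker groups unchanged too. Of the 48 shares that moved, 18 did so after thinning, which lowers shares because fewer UMIs are drawn. Of the co-detection ratios, for which no interval is given here, 69 of 71 were counted as the same and 2 as moved. That count does not show how far they shifted. The ratio of *HES1* and *NRARP* in CD34/GATA2-positive cells, for example, was 1.08 as counted and 0.926 after thinning. The settings with an *ELANE* threshold of 1 UMI, with hashtag counts 1.5 or more times the smallest call, and the groups by *MPO*, by *CD3D*, without *KLF1* and of ungrouped cells without *CDH5* or collagen were chosen after seeing the data. No paired analysis was possible because there is 1 library and no replicate was labeled, and no replicate could be left out. Counting error limits *HEY1*, *HEY2* and all values in the 71 ELANE-positive cells.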

Other observations

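Over all 7550 cells, without regard to marker groups, 0254 and 0255 lay above 0252 and 0253 beyond counting error for every gene but *HEY1*. *HES4* was 4.73 CPM (4.08 to 5.45) in 0252, 4.21 CPM (3.59 to 4.91) in 0253, 15.8 CPM (14.5 to 17.2) in 0254 and 28.9 CPM (27.0 to 31.0) in 0255. *HEY2* was 0.693 CPM (0.460 to 1.001), 0.390 CPM (0.218 to 0.643), 1.58 CPM (1.19 to 2.06) and 1.89 CPM (1.42 to 2.47) in the same order. *DTX1* was 0.520 CPM (0.322 to 0.794), 0.884 CPM (0.612 to 1.24), 2.42 CPM (1.93 to 3.00) and 7.82 CPM (6.83 to 8.91). For *DTX1* the step from 0254 to 0255 was 3.23 times (2.50 to 4.20), beside 2.74 times (1.82 to 4.21) from 0253 to 0254. *HES1* was 20.8, 25.2, 32.5 and 36.3 CPM and *NRARP* 7.35, 7.64, 9.71 and 13.5 CPM. Their steps from 0253 to 0254 were smaller, at 1.29 times (1.18 to 1.40) and 1.27 times (1.08 to 1.49). Of 8079 genes with at least as many UMIs, 210, *NRARP* included, matched or passed its highest to lowest ratio of 1.84. *HEY1*, at 0.148, 0.234, 0.288 and 0.175 CPM from 30 UMIs, showed no difference between neighbors beyond counting error. The make-up of the cells differed by hashtag too, with 17.9, 18.7, 4.98 and 3.76% MPO-positive and 8.47, 8.92, 25.4 and 32.3% CD3D-positive cells. Its part in these levels was not tested. The hashtags remain without a coating.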
